A study of Arabidopsis thaliana with 6 samples.

Results

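The zinc finger genes described here are ZAT5, ZAT6, ZAT7, ZAT8, ZAT9, ZAT10, ZAT11, ZAT12 and SZF1 of Arabidopsis thaliana, 9 of the 22759 named rows in the expression tables. They were picked by name as rapidly stress-induced zinc finger genes, with the difference between the groups already known, so their differences between the groups are given as a description and without p-values. Their RNA was measured in 3 libraries of the mutant hrlp-2, labelled as an HRLP knockout, and in 3 libraries of wild type (WT, accession Col). Both groups were the aerial parts of 9-day-old seedlings given 16 h of light and 8 h of dark a day. They were kept at the same temperature, with no other treatment named, and the labels call each library a biological replicate. Values are counts per 1000000 reads (CPM) as deposited, and 1 CPM stood for about 20.05 to 25.18 reads depending on the library.

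Plants switch on the ZAT genes within minutes to hours of salt, cold, drought, high light, wounding or attack. They encode nuclear proteins with C2H2 zinc fingers that bind DNA, and most carry an EAR motif, a short peptide that recruits corepressors and makes the protein a repressor of transcription. SZF1 belongs to another class: it has a tandem pair of CCCH fingers, a type of finger known for binding RNA, and acts together with its close relative CZF1 (also called SZF2) in salt tolerance.

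Of the 9 genes, SZF1 stood out and most ZAT genes were barely expressed. SZF1 averaged 31.1 CPM in hrlp-2 and 10.9 CPM in WT. Each of the 8 ZAT genes averaged under 3 CPM in both groups, which put them among the weakly expressed rows in seedling shoots. Summed over the 8 ZAT rows, the level was 10.21, 10.95 and 9.30 CPM in the hrlp-2 libraries, against 7.44, 8.56 and 8.65 CPM in the WT libraries. The lowest hrlp-2 sum lay above the highest WT sum, but the gap between them was smaller than the SD within hrlp-2 (0.826 CPM) or WT (0.674 CPM). In RNA from whole shoots, more RNA per cell and more cells that carry the RNA cannot be told apart.

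The HRLP gene, whose RNA-binding product resembles hnRNP R, was read from the row AT2G44710, a link known from the study that neither the labels nor the tables state. That row was lower in the mutant but not absent, and averaged 16.6 ± 0.601 CPM in hrlp-2 and 31.1 ± 1.65 CPM in WT (SD, n = 3 each). The 6 matched markers of green shoot tissue averaged 2420 to 18800 CPM in WT, and 4 of them were slightly higher in hrlp-2 (LHCB4.1, LHCA2, PSBO1 and GAPA1, log2 fold changes of 0.12 to 0.15, limma adjusted p up to 2.54e-06). Summed over the 6 markers, the level ran from 41780 to 42600 CPM in hrlp-2 and from 40430 to 41550 CPM in WT. Of 8 matched root markers, the Casparian strip genes CASP2 and CASP4 had 0 CPM throughout, and BGLU23 (PYK10) alone exceeded 2 CPM, at 267 CPM in hrlp-2 and 232 CPM in WT (log2 fold change 0.22, limma adjusted p = 1.22e-07). Summed over the 8 root markers, the level ran from 262.8 to 278.1 CPM in hrlp-2 and from 233.8 to 235.8 CPM in WT. Nearly all of this sum was BGLU23. The other tested root markers, WOX5 (log2 fold change 0.06) and NRT2.1 (-0.29), did not pass the limma threshold. Replicate 3 of WT stood apart from its group in a minority of genes. The mean chi-square per gene on estimated reads was 13.39 and 11.25 for its pairs with WT replicates 1 and 2, against 2.26 to 2.51 for the other pairs within a group.

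**Figure D1:**
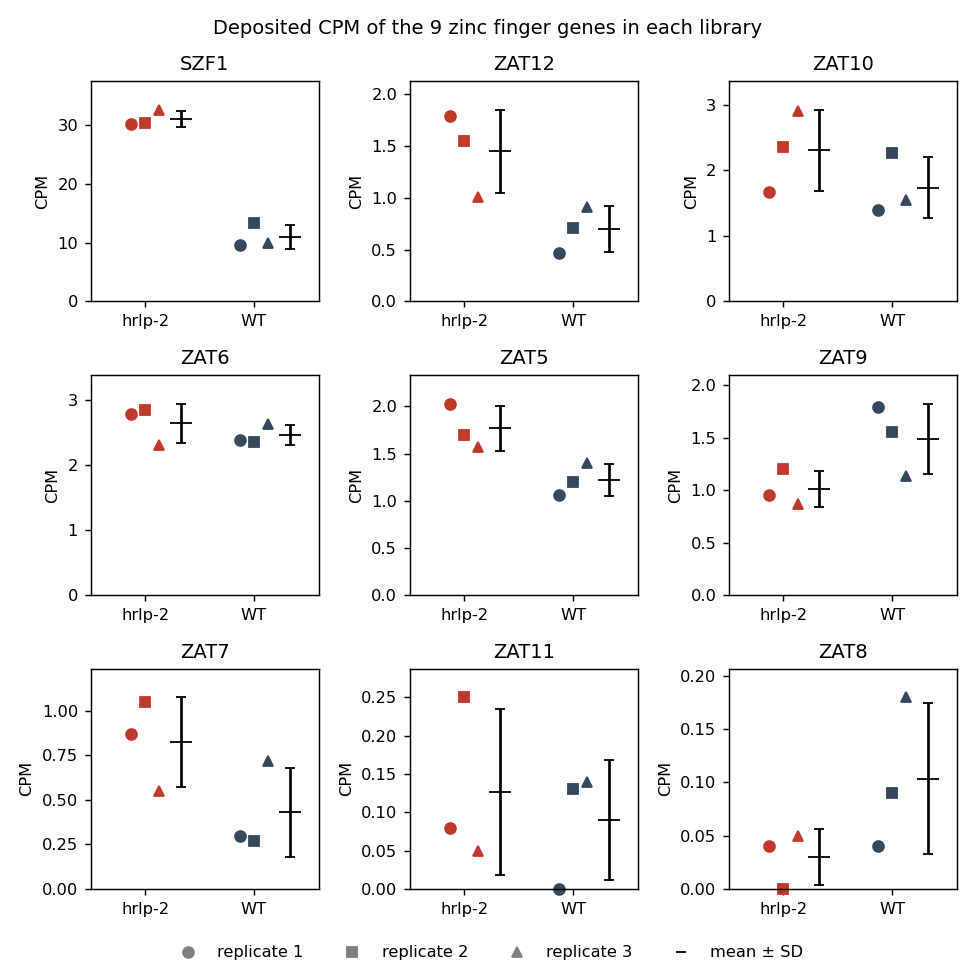
Deposited CPM of each of the 9 genes (y axis, starting at 0, own scale per panel) in the 3 hrlp-2 and 3 WT libraries (x axis); symbols mark the replicate number and bars the mean ± SD. SZF1 reads 30.26 to 32.64 CPM in hrlp-2 and 9.61 to 13.26 CPM in WT, while no ZAT gene passes 2.90 CPM in any library.

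SZF1 (AT3G55980, chromosome 3 of TAIR10.1, 20776220 to 20778952, plus strand) had 30.26, 30.32 and 32.64 CPM in the hrlp-2 libraries, against 9.61, 13.26 and 9.87 CPM in the WT libraries. All 3 mutant libraries lay close together and far above WT, where replicate 2 was the highest. The estimated read numbers behind these values were 762, 608 and 709 in hrlp-2 and 226, 299 and 218 in WT. The ratio of the mean CPM values was 2.85, and the log2 fold change, hrlp-2 minus WT on the log2(CPM + 0.5) scale, was 1.50 (SE 0.0857). This placed SZF1 11th by size of rise among the 18643 rows with enough signal to be tested. Without single libraries its log2 fold change ran from 1.42 to 1.64, and without WT replicate 3 it was 1.44. The SD was 1.36 CPM in hrlp-2, close to the 1.19 CPM that counting error alone would give, and 2.04 CPM in WT, against 0.694 CPM from counting error.

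CZF1 (AT2G40140, chromosome 2, 16771997 to 16774734, plus strand), the closest relative of SZF1, rose as well, but less. It had 20.61, 23.08 and 23.11 CPM in hrlp-2, against 16.20, 16.32 and 16.75 CPM in WT (log2 fold change 0.45, SE 0.0707, limma adjusted p = 1.45e-05). The groups did not overlap. Within each library the ratio of SZF1 to CZF1 was 1.47, 1.31 and 1.41 in hrlp-2, against 0.593, 0.812 and 0.589 in WT. Scaled by exon length, SZF1 was the higher of the pair in the mutant and the lower in WT: SZF1 averaged 13.3 ± 0.580 CPM per kb in hrlp-2 and 4.67 ± 0.871 CPM per kb in WT, and CZF1 averaged 9.04 ± 0.583 CPM per kb in hrlp-2 and 6.67 ± 0.117 CPM per kb in WT (SD, n = 3 each). The coding sequences of the pair are 79.1% identical over 1721 aligned bases, so how reads from their most similar stretches were divided is uncertain.

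The DNA just upstream of the SZF1 and CZF1 starts is shown because it holds a stretch that both genes share. Each sequence is the 250 bases before the annotated gene start, read 5′ to 3′ on the gene's strand from RefSeq's TAIR10.1 genome. The SZF1 window is chr3:20775970-20776219 (plus strand) and the CZF1 window is chr2:16771747-16771996 (plus strand). Capitals mark matches, on either strand, to TTGAC, the core of the W-box that WRKY transcription factors bind.
SZF1: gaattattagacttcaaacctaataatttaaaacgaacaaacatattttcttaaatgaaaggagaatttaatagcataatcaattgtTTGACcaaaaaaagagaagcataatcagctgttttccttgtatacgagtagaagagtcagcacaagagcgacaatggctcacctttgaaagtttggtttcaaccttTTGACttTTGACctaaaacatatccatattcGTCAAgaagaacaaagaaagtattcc
CZF1: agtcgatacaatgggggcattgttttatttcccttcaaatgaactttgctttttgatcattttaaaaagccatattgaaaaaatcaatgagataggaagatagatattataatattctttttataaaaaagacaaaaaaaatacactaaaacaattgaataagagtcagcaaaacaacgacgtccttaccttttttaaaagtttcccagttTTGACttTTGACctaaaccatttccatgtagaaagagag
The longest run of bases common to both windows is TTTTGACTTTTGACCTAAA, 19 bases long, which holds a pair of W-box cores in the same orientation with a spacer of the same letters. It lies 59 to 41 bases before the SZF1 start and 41 to 23 bases before the CZF1 start. Among the 27444 windows of the same length before all protein-coding nuclear genes, the run occurs in 2, those of SZF1 and CZF1. The looser pattern of TTGAC, any 2 bases (NN) and TTGAC again, on either strand, occurs in 93 windows (0.339%), while single TTGAC occurs in 44.9% and at least 2 copies in 14.1%. Of the 54 tested genes with this pattern, 6 were called higher (11.1%) and 5 lower (9.26%), against 11.0% higher and 8.76% lower of the 14935 tested genes whose windows were read. This pattern was chosen after the sequences were seen, and SZF1 and CZF1 are themselves among the genes counted. A second SZF1 transcript and a second CZF1 transcript start further downstream, and the data do not tell which start was used.

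**Figure D2:**
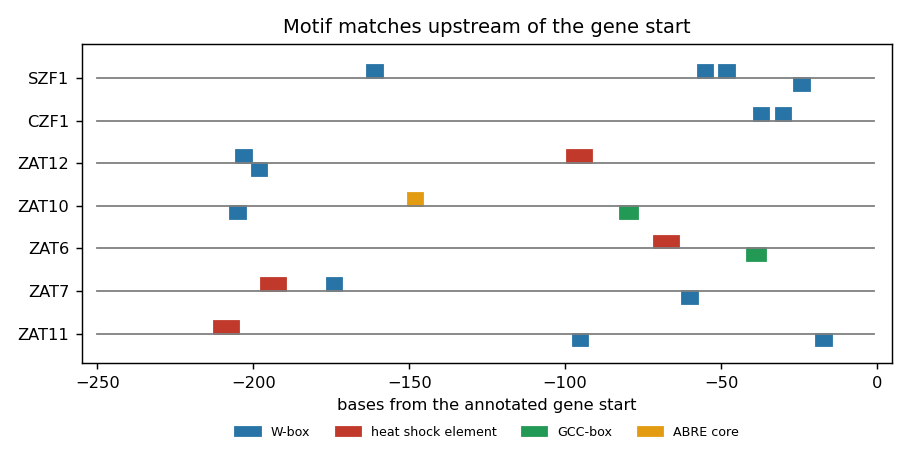
Matches to 4 motifs in the 250 bases before the annotated start of SZF1, CZF1 and the 5 ZAT genes with a RefSeq locus (x axis, bases from the start; boxes above the line are on the gene's strand, boxes below on the other). SZF1 holds 4 W-box cores and CZF1 holds 2, which form the shared pair.

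Among the ZAT genes, ZAT12 differed most on the log2 scale. ZAT12 (RHL41, AT5G59820, chromosome 5, 24102814 to 24103794, plus strand) encodes a regulator of the responses to high light and oxidative stress that is needed for induction of the peroxidase gene APX1. It had 1.79, 1.55 and 1.01 CPM in hrlp-2, against 0.47, 0.71 and 0.91 CPM in WT. The groups did not overlap, but hrlp-2 replicate 3 and WT replicate 3 lay close together. These values rest on 45, 31 and 22 estimated reads in hrlp-2 and 11, 16 and 20 in WT. ZAT12 entered the test only with its hrlp-2 values, since WT replicate 1 lay under the filter of 0.5 CPM. The log2 fold change was 0.71 (SE 0.230) and the ratio of mean CPM 2.08. For so weak a gene the log2 fold change depended on the 0.5 CPM added before taking logs. The log2 fold change was 1.09 in limma-voom on estimated reads and 0.53 with a pseudocount of 1 CPM. ZAT12 passed the threshold with all 6 libraries and no longer did without hrlp-2 replicate 1 (log2 fold change 0.59), hrlp-2 replicate 2 (0.66), WT replicate 1 (0.57) or WT replicate 2 (0.73).

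ZAT10 (STZ, AT1G27730, chromosome 1, 9648021 to 9649323, minus strand), a repressor in salt, drought and cold responses and a substrate of stress-activated MAP kinases, showed no such separation. It had 1.67, 2.35 and 2.90 CPM in hrlp-2, against 1.40, 2.26 and 1.54 CPM in WT. The ranges overlapped, and replicate 3 was the highest mutant library here, whereas for ZAT12 it was the lowest. The log2 fold change was 0.34 (SE 0.198), and it ran from 0.19 without hrlp-2 replicate 3 to 0.51 without hrlp-2 replicate 1. The SD of 0.616 CPM in hrlp-2 and 0.461 CPM in WT exceeded the counting errors of 0.325 and 0.277 CPM.

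ZAT6 (AT5G04340, chromosome 5, 1216058 to 1217362, minus strand), known for roles in phosphate homeostasis and cadmium tolerance, had the highest level per kb of the located ZAT genes and was nearly level between the groups. It had 2.78, 2.85 and 2.30 CPM in hrlp-2, against 2.38, 2.35 and 2.63 CPM in WT. The lowest of the 6 values was a mutant one, and the log2 fold change was 0.10 (SE 0.167), or 0.05 to 0.19 without single libraries. The coding sequences of ZAT6 and ZAT10 are 79.6% identical over 666 aligned bases.

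The windows before ZAT12 and ZAT6 are set side by side because these ZAT genes had the largest and the smallest log2 difference among those with a locus that were tested. The ZAT12 window is chr5:24102564-24102813 (plus strand) and the ZAT6 window is chr5:1217363-1217612 (minus strand), both TAIR10.1. Capitals mark matches on either strand to TTGAC, to the heat shock element GAANNTTC or to the GCC-box GCCGCC, which ethylene response factors bind.
ZAT12: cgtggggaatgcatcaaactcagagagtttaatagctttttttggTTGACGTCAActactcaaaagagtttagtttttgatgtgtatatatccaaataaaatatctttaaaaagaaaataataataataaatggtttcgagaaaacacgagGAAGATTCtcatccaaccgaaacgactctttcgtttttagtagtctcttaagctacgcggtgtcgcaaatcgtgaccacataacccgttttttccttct
ZAT6: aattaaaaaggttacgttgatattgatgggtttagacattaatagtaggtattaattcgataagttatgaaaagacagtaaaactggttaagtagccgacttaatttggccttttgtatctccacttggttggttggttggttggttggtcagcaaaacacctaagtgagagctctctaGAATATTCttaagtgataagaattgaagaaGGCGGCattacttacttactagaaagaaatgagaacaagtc
In the ZAT12 window, a TTGAC match on each strand adjoins the other from 205 to 196 bases before the start. Together they form the palindrome TTGACGTCAA, and which protein binds it was not tested. A heat shock element lies 99 to 92 bases before the ZAT12 start. The ZAT6 window holds no TTGAC. It has a heat shock element 71 to 64 bases before the start and a GCC-box 41 to 36 bases before it, and the ZAT10 window has a GCC-box 82 to 77 bases before the start. Over all 27444 windows, 9.55% hold a heat shock element and 1.87% a GCC-box. No window of SZF1, CZF1 or the 5 located ZAT genes holds CGCGTT, the rapid stress response element, which 2.59% of all windows have. The ABRE core ACGTG, found in 22.9% of all windows, occurs in that of ZAT10 alone among these 7.

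ZAT7 and ZAT8 were low, and ZAT7 has near copies. ZAT7 (AT3G46090, chromosome 3, 16925881 to 16926883, minus strand), whose product is known for a part in salt tolerance, had 0.87, 1.05 and 0.55 CPM in hrlp-2, against 0.30, 0.27 and 0.72 CPM in WT. The groups overlapped through both libraries numbered 3. The log2 fold change of 0.53 (SE 0.260) moved to 1.02 in limma-voom and to 0.36 with a pseudocount of 1 CPM, and the values rest on 55 estimated reads in hrlp-2 and 29 in WT. ZAT7 entered the test through its hrlp-2 values, since only 1 WT library reached 0.5 CPM. Its coding sequence is 93.6% identical to that of AT3G46080 and 81.2% identical to that of AT3G46070, both neighbouring C2H2 genes on the same strand, so the division of reads among these copies is uncertain.

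ZAT8 had 0.04, 0.00 and 0.05 CPM in hrlp-2, against 0.04, 0.09 and 0.18 CPM in WT, which is 2 and 7 estimated reads in all. The RefSeq table ties ZAT8 to no locus, so whether it is one of the near copies of ZAT7 is not told. ZAT11 (AT2G37430, chromosome 2, 15706285 to 15707224, plus strand), which influences root growth and nickel tolerance, had 0.08, 0.25 and 0.05 CPM in hrlp-2, against 0.00, 0.13 and 0.14 CPM in WT, or 8 and 6 estimated reads in all. Both genes stayed under the filter of 0.5 CPM in 3 libraries, and no difference was detectable at this depth.

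ZAT5 and ZAT9, which the RefSeq table ties to no locus, moved in opposite directions, neither past the threshold. ZAT5 had 2.03, 1.70 and 1.57 CPM in hrlp-2, against 1.06, 1.20 and 1.40 CPM in WT. Its groups did not overlap, and its log2 fold change was 0.41 (SE 0.198). ZAT9 had 0.95, 1.20 and 0.87 CPM in hrlp-2, against 1.79, 1.55 and 1.13 CPM in WT, the only tested member with a lower mean in the mutant. Its groups overlapped, and its log2 fold change was -0.38 (SE 0.213). For both genes the SD within each group, 0.171 to 0.334 CPM, was of the size of the counting error, 0.214 to 0.281 CPM.

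Library by library, 5 members (ZAT5, ZAT6, ZAT7, ZAT11 and ZAT12) shared an order, ZAT11 on a handful of reads. In each of them hrlp-2 replicate 3 was the lowest mutant library and WT replicate 3 the highest WT library. For ZAT5 and ZAT6 the SD within each group was below the counting error. The share of all rows with this order was not counted, so nothing is read from it. ZAT10 went the other way among the mutant libraries, and SZF1 was also highest in hrlp-2 replicate 3. Per kb of exon the level in hrlp-2 ran from SZF1 (13.3 CPM per kb) through ZAT6 (2.03), ZAT10 (1.77), ZAT12 (1.48) and ZAT7 (0.821) to ZAT11 (0.135 CPM per kb). In WT the order was the same, at 4.67, 1.88, 1.33, 0.710, 0.429 and 0.0957 CPM per kb. In hrlp-2 the steps between ZAT6, ZAT10 and ZAT12 were smaller than the SDs of ZAT10 (0.473 CPM per kb) and ZAT12 (0.407 CPM per kb), so these 3 neighbours did not differ beyond their spread. The other steps, and all steps in WT, were larger than the SD of either neighbour.

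In count, 2 of the 7 tested members were called higher (SZF1 and ZAT12; limma, adjusted p under 0.05 over all rows) and 0 lower. At an unadjusted p under 0.05 the counts were 4 higher and 0 lower, a threshold at which the share of all rows was not counted. Limma-voom called 2 members higher and 0 lower, against 1999 rows higher and 1694 lower of the 18643 tested. Of all 18643 rows tested, 20.4% were called in either direction, 11.0% higher and 9.31% lower. Among the 3493 rows with a mean log2 value of 0 to 2, the range that holds the 6 tested ZAT genes, 2.92% were called higher and 4.04% lower. Separation of the groups was read in deposited CPM, without the scaling used for the calls. Groups were fully separated upward for 3 members (SZF1, ZAT12 and ZAT5), against 14.7% of all tested rows, and downward for 0, against 18.7%. The median log2 fold change was 0.41 over the 7 tested members and 0.00 over all tested rows. Since the members were proposed with this contrast known, nothing is read from these shares.

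**Figure D3:**
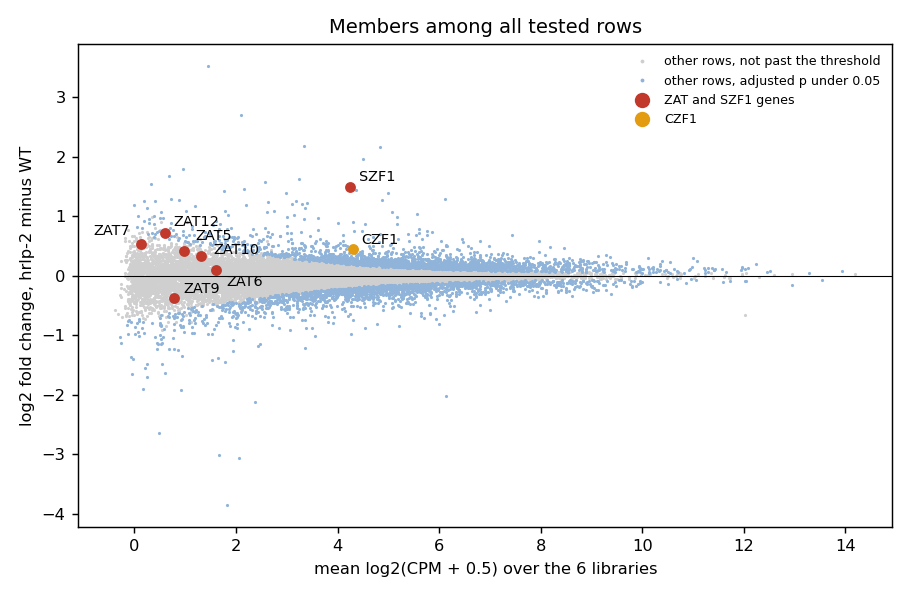
Log2 fold change, hrlp-2 minus WT (y axis), against mean log2(CPM + 0.5) over the 6 libraries (x axis) for all 18643 tested rows, with the 7 tested members in red and CZF1 in orange. SZF1 lies far above the cloud at a log2 fold change of 1.50, CZF1 at 0.45 stands at a like level, and the ZAT genes sit at the weak end where the cloud is wide.

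Genes whose log2 values followed those of a member most closely over the 6 libraries were listed among 16769 rows with a mean log2 value of at least 1, by the root mean square difference of the centred profiles. For SZF1 these were CAF1-9, a gene for a deadenylase that shortens mRNA tails (difference 0.0972), the row named PR1 (0.102) and the ubiquitin ligase gene PUB20 (0.110). CAF1-9 averaged 16.1 ± 1.02 CPM in hrlp-2 and 4.94 ± 0.529 CPM in WT, and PUB20 averaged 5.03 ± 0.333 CPM in hrlp-2 and 1.60 ± 0.409 CPM in WT (SD, n = 3 each). For ZAT12 they were AT1G72240 (0.114), AT2G39980 (0.148) and FLXL3 (0.155), the last at 13.3 ± 1.02 CPM in hrlp-2 and 8.34 ± 1.20 CPM in WT. For the other 5 tested members the nearest rows differed by 0.0186 (AT3G01170, for ZAT6) to 0.123 (AT5G24200, for ZAT7). With 6 libraries and a large difference between the groups, such likeness for SZF1 largely restates a like fold change.

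The wider families, and the regulators, partners, targets and rapid stress genes below, were described from lists written with earlier results of these data known. Nothing is read from the share of each list that was called. The same holds for the counts at an unadjusted p, for which the share of all rows was not counted. Among C2H2 relatives, 3 were tested and 0 passed the limma threshold. ZAT4 was lower in every mutant library, at 1.19, 0.50 and 1.47 CPM in hrlp-2, against 1.57, 2.13 and 1.67 CPM in WT (log2 fold change -0.59, limma adjusted p = 0.0624). ZAT4 passed without hrlp-2 replicate 3 (log2 fold change -0.79, limma adjusted p = 0.0244), while without hrlp-2 replicate 2 its log2 fold change was -0.31. AZF2 measured 1.48 CPM in hrlp-2 and 1.06 CPM in WT (limma adjusted p = 0.276), and AZF3 measured 1.50 CPM in both (limma adjusted p = 0.988). At an unadjusted p under 0.05, limma gave 0 higher and 1 lower (ZAT4) of the 3, and limma-voom called 0.

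Of 6 tested tandem CCCH relatives of SZF1, 3 rose and 0 fell, and the median log2 fold change was 0.33, against 11.0% of all tested rows higher, 9.31% lower and a median of 0.00. At an unadjusted p under 0.05 limma gave 4 higher and 0 lower, and limma-voom called 3 and 0. Besides CZF1, these were OZF2 (AT4G29190), named as an oxidation-related zinc finger, and TZF7 (AT2G41900). OZF2 had 24.06, 22.38 and 22.01 CPM in hrlp-2, against 17.22, 17.16 and 17.06 CPM in WT (log2 fold change 0.42, limma adjusted p = 1.92e-05). TZF7 had 70.72, 78.02 and 72.24 CPM in hrlp-2, against 67.58, 68.96 and 66.36 CPM in WT (log2 fold change 0.14, limma adjusted p = 0.0138), a call lost without hrlp-2 replicate 2 (adjusted p = 0.139) or WT replicate 3 (adjusted p = 0.0538), in limma. OZF1 (AT2G19810), TZF5 and TZF9 (AT5G58620) did not pass, at 15.7, 1.05 and 6.70 CPM in hrlp-2 against 14.9, 0.583 and 5.74 CPM in WT. The log2 fold change of SZF1 was thus the largest of the 7 tested genes of this class.

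**Figure D4:**
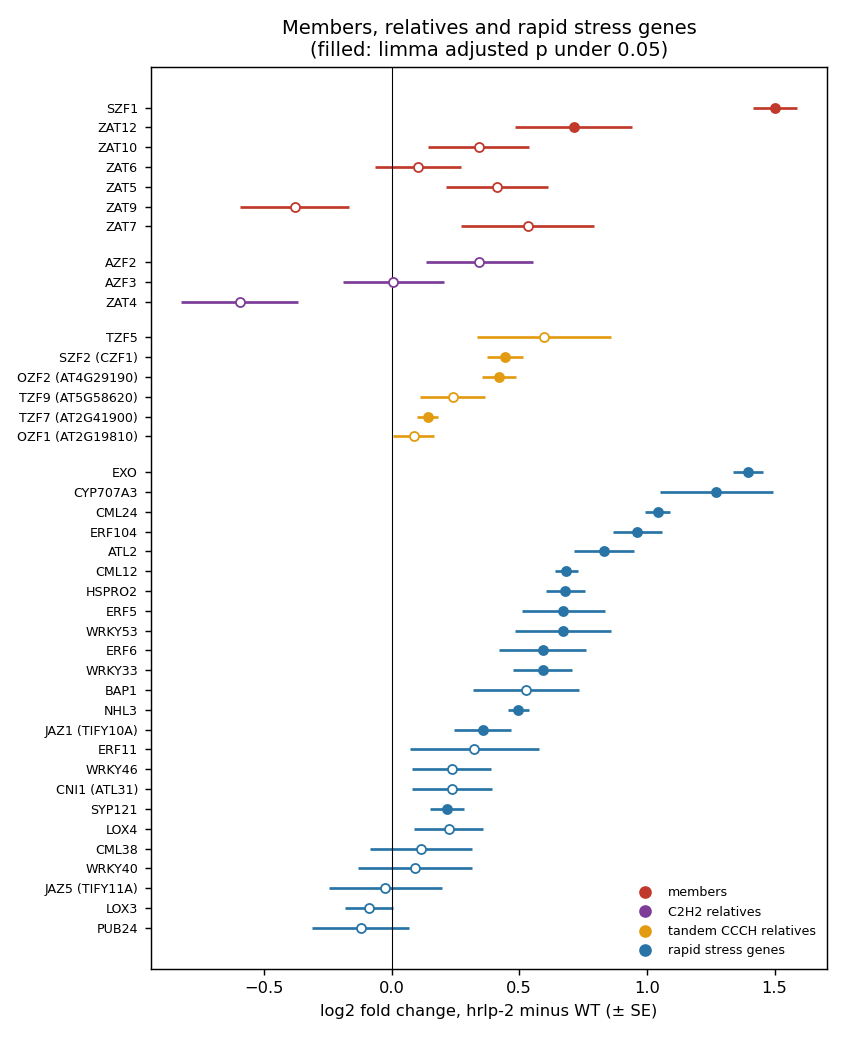
Log2 fold change ± SE, hrlp-2 minus WT (x axis), of the tested members, their C2H2 and CCCH relatives and the rapid stress genes (rows); filled points passed the limma threshold. SZF1 at 1.50 and EXO at 1.40 are the farthest right, and the ZAT genes other than ZAT12 are open points.

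Kinases and regulators that act before the ZAT genes changed by small amounts. Of 17 tested, 5 rose and 1 fell, with a median log2 fold change of 0.07, where 11.0% of all tested rows were higher and 9.31% lower. MKK9, a MAP kinase kinase, averaged 8.10 ± 0.860 CPM in hrlp-2 and 5.98 ± 0.332 CPM in WT (limma adjusted p = 0.00762). MPK3, a MAP kinase known to phosphorylate ZAT10, averaged 54.5 ± 4.15 CPM in hrlp-2 and 47.8 ± 1.05 CPM in WT (limma adjusted p = 0.00265). RBOHD, the NADPH oxidase gene of the stress-induced oxidative burst, averaged 27.4 ± 1.24 CPM in hrlp-2 and 22.1 ± 0.728 CPM in WT (limma adjusted p = 0.00018). MKK4 averaged 13.5 ± 0.341 CPM in hrlp-2 and 11.1 ± 1.44 CPM in WT (limma adjusted p = 0.0167), a call lost without hrlp-2 replicate 2 or 3 (adjusted p = 0.0558 and 0.0551) or WT replicate 2 (0.145). MPK4 rose by a log2 fold change of 0.16, a call lost without hrlp-2 replicate 1 (limma adjusted p = 0.0842). The gene that fell was CAMTA1 (EICBP.B), a calmodulin-binding transcription activator, at 40.7 ± 2.63 CPM in hrlp-2 and 48.3 ± 2.41 CPM in WT (limma adjusted p = 0.00198). CAMTA3, an activator of rapid stress genes, measured 42.7 CPM in hrlp-2 and 39.3 CPM in WT and missed the threshold (limma adjusted p = 0.0517), passing without hrlp-2 replicate 2 or WT replicate 3.

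Partners and targets of the ZAT proteins were described in the same way. Of 4 tested genes for EAR corepressors and their histone deacetylases, 1 rose, where 11.0% of all tested rows did. This was HDA19, which averaged 68.4 ± 0.626 CPM in hrlp-2 and 63.7 ± 2.29 CPM in WT (limma adjusted p = 0.0275), a call lost without any 1 hrlp-2 replicate (adjusted p = 0.0523 to 0.0815) or without WT replicate 3 (0.138). The HDA19 call was also lost with the deposited CPM not rescaled (limma adjusted p = 0.0759). The corepressor gene TPL measured 67.3 CPM in hrlp-2 and 63.7 CPM in WT (limma adjusted p = 0.0828). Of 9 tested oxidative stress genes, 6 rose and 0 fell (also at an unadjusted p under 0.05 in limma, and in limma-voom), with a median log2 fold change of 0.13. Of all tested rows 11.0% were higher and 9.31% lower, and the 6 green tissue markers had the same median of 0.13 with 4 called higher. The part of that shift in this list was not tested. APX1, the cytosolic ascorbate peroxidase gene whose induction depends on ZAT12, averaged 506 ± 5.94 CPM in hrlp-2 and 450.0 ± 8.64 CPM in WT (log2 fold change 0.19, limma adjusted p = 8.07e-08). FSD1, an iron superoxide dismutase gene, averaged 764 ± 21.0 CPM in hrlp-2 and 674 ± 22.0 CPM in WT (log2 fold change 0.20, limma adjusted p = 8.63e-08). CSD1 and GSH1 rose by a log2 fold change of 0.13 each. The other calls, GSH2 (0.11) and MT2A (0.06), were lost under 5 and 8 of the 15 alternatives.

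Among rapid stress genes, which respond in the same hours as ZAT10 and ZAT12, 14 of 24 tested rose and 0 fell, where 11.0% of all tested rows were higher and 9.31% lower. When single libraries were left out, 12 to 14 rose. At an unadjusted p under 0.05 limma gave 15 higher and 0 lower, and limma-voom called 14 and 0. EXO, a gene of brassinosteroid-dependent growth, had 49.67, 51.35 and 52.16 CPM in hrlp-2, against 17.82, 20.58 and 19.74 CPM in WT (log2 fold change 1.40, limma adjusted p = 3.11e-18). CYP707A3, an enzyme gene of abscisic acid breakdown, averaged 2.41 ± 0.753 CPM in hrlp-2 and 0.707 ± 0.230 CPM in WT (log2 fold change 1.27, limma adjusted p = 5.47e-05). It entered the test only with its hrlp-2 values, since WT replicate 1 lay under the filter of 0.5 CPM. The calmodulin-like touch gene CML24 averaged 66.8 ± 1.99 CPM in hrlp-2 and 32.6 ± 1.60 CPM in WT (limma adjusted p = 3.17e-17). ERF104, an ethylene response factor gene, averaged 13.5 ± 0.299 CPM in hrlp-2 and 6.79 ± 0.238 CPM in WT (limma adjusted p = 2.87e-09). The other 10 that rose were ATL2, CML12, HSPRO2, ERF5, WRKY53, ERF6, WRKY33, NHL3, JAZ1 (TIFY10A) and SYP121, with log2 fold changes of 0.22 to 0.83. CML12, a touch gene for a calmodulin-like protein, had 67.07, 68.93 and 66.94 CPM in hrlp-2, against 41.98, 41.91 and 43.54 CPM in WT. WRKY33, a regulator of defence, had 9.65, 9.49 and 8.93 CPM in hrlp-2, against 7.36, 5.50 and 5.66 CPM in WT. The call was lost for ERF6 without WT replicate 2 (limma adjusted p = 0.0756) and for WRKY53 without hrlp-2 replicate 2 (0.0511). It was also lost for JAZ1 (TIFY10A) without hrlp-2 replicate 3 or WT replicate 1 (limma adjusted p = 0.0701 and 0.0772) and for SYP121 without hrlp-2 replicate 2 or WT replicate 3 (0.0777 and 0.0975). ERF109, MYB15, CML37 and JAZ8 stayed under the filter. The list's median log2 fold change was 0.51, against 0.00 over all tested rows. The list was written with earlier results of these data known, so nothing is read from its share or median. WRKY40, often induced with the ZAT genes, measured 0.953 CPM in hrlp-2 and 0.867 CPM in WT (limma adjusted p = 0.829).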

How the data were processed

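RNA was measured in 6 libraries (3 hrlp-2, 3 WT), assigned to groups by their titles. Each library has its own CPM table, deposited by the authors, whose column sums to 1000000.5 to 1000007.8. Per the submitters' processing notes, STAR 2.7.3a and TAIR10 were used; which counter, annotation and strand setting made the values is not given in the sources used here. In each library 88.0% to 89.5% of values under 2 CPM lay within 0.0051 CPM of whole multiples of 1 step, so whole reads were only estimated and no count test was the main one. Rows with at least 0.5 CPM in 3 libraries were divided by unweighted trimmed-mean-of-M (TMM) factors (0.9901 to 1.0130) and tested as log2(CPM + 0.5) with limma 3.58.1 in R 4.3.3 (intensity trend, two-sided, Benjamini-Hochberg over 18643 rows, threshold 0.05); the code was tested on simulated data. Counting errors assume Poisson reads. Windows, exon lengths and coding identities came from RefSeq's TAIR10.1, which matched 6 of the 9 members. The members and lists were chosen with earlier results of these data known. All 9 members, up to 4 called genes per list and direction, the tested relatives and the nearest profiles were named by a rule. Further called genes, among them CML12, WRKY33, MPK4, GSH2 and MT2A, were named beyond this rule. TZF5 and other genes that did not pass, and the W-box pair, were named after their values were seen. Of 98 list genes, 70 had a row and were used; 8 symbols of several loci were left out, as was ZAT1, whose symbol RefSeq gives to a zinc transporter. P-values weigh the difference between the groups against the spread between libraries within a group, moderated over all rows.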

Additional observations from a re-analysis of the deposited data

How the results depend on the processing

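The direction of each of the 7 tested members was the same under all 15 alternatives in which it was tested (pseudocounts, filters, scalings, limma-voom on estimated reads, the replicate block and leaving out each library), and the call of SZF1 held in all of them, with log2 fold changes of 1.42 to 1.64. With single libraries left out, members called higher numbered 1 to 2, the lower value being the loss of ZAT12, and list genes called lower numbered 1 to 2, against 1 with all libraries. The median log2 fold change of the tested members ran from 0.33 to 0.56 and that of HRLP from -0.90 to -0.83. The share of all calls that were higher was 54.3% with TMM factors and 44.6% with the deposited CPM not rescaled, where log2 fold changes of SZF1 and ZAT12 were 1.48 and 0.70. Same-numbered libraries showed no shared deviations across genes (correlations -0.027 to -0.008, against -0.004 to 0.021 for other-numbered libraries). Values this near 0 do not settle whether same-numbered libraries were grown or prepared together. With the replicate block 2 members were called higher and 0 lower, and 2057 rows were higher and 1727 lower. Depth limits the ZAT genes: those tested rest on 29 to 177 estimated reads per group.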
